A study of Rattus norvegicus with 16 samples.

Results

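The hypothalamus of rats restrained for 2 h was compared with that of untreated control rats, over every gene that the arrays named. The 8 arrays of these groups were taken from a series of 16 by their labels, as 4 arrays of restrained rats that inhaled no odorant and 4 of controls that had neither restraint nor odorant. All rats were male Wistar rats aged 7 to 8 weeks that had been accustomed to the housing and the investigators for 1 week, and each array held RNA of 1 rat's hypothalamus. The other 8 arrays were of rats that inhaled (R)-(-)-linalool, a floral-smelling monoterpene alcohol, with restraint (4 rats) or without it (4 rats), and they entered the fit to share in the estimate of the spread. Neither the restraint device nor the interval before dissection is stated in the labels. The comparison asks which hypothalamic transcripts differ once a rat has been held immobile for 2 h.

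Restraint is a widely used psychological stressor of rodents. Neurons of the paraventricular nucleus answer it by releasing corticotropin-releasing hormone and vasopressin, the pituitary releases corticotropin, and the adrenal cortex releases corticosterone. Corticosterone enters the brain, where its receptors, which are transcription factors held ready by heat shock protein 90 and its cochaperones, switch on and off sets of genes in neurons, glia and vessels. Heat shock genes respond through a separate factor to misfolded protein, heat or strong activation, and immediate early genes such as Fos respond to synaptic activity within minutes.

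Transcripts typical of the hypothalamus, named only to check the tissue, had signals in every rat compared. The oxytocin gene Oxt had quantile-normalized signals of 5077 to 5505 in restrained rats and 4582 to 5764 in controls, Pmch, the gene of melanin-concentrating hormone, 5465 to 8460.2 in restrained rats and 6697 to 7754 in controls, and Hcrt, the orexin gene, 513 to 1430.0 in restrained rats and 1059 to 1203 in controls. The median deposited signal of an array was 87.3 to 127 in restrained rats and 67.0 to 116 in controls (exact permutation test, two-sided, p = 0.629). The ratios of 3' to 5' probe sets of beta-actin, GAPDH and hexokinase, which rise as RNA breaks down, overlapped between the groups, with log2 beta-actin ratios of 1.51 to 1.81 in restrained rats and 1.06 to 2.30 in controls (exact p = 0.657). The BioB spike-in, an RNA added at hybridization, did separate them, at 204.6 to 225.1 in restrained rats and 165.6 to 198.8 in controls. Its exact p of 0.0286 is the smallest that 4 against 4 rats allow, and was 0.171 after Benjamini-Hochberg adjustment over the 6 array measures. The BioC spike-in was at 205.1 to 271.4 in restrained rats and 201.3 to 245.6 in controls (exact permutation p = 0.486). In the arrays of linalool-inhaling rats BioC was at 220.8 to 1013.9. A fit with the BioC level as a block is given in the last section. The BioB level entered no fit, and its part in the results was not tested.

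Of 18625 probe sets bright enough to be tested, 168 (0.902%) differed at an adjusted p under 0.05, which is what "called" means below. Higher in restrained rats were 117 (0.628%), and lower were 51 (0.274%). With each of 10309 named genes represented by its brightest probe set, 64 genes (0.621%) rose and 27 (0.262%) fell. The changes ran from 0.32 to 3.44 on the log2 scale among genes that rose, with a median of 0.66, and from -1.27 to -0.37 among genes that fell, with a median of -0.77. Only 12 rises and 2 falls exceeded 1 on that scale. All 64 and all 27 called genes had groups that did not overlap. Of all 10309 genes, 353 (3.42%) had every restrained rat above every control, and 305 (2.96%) had every restrained rat below. An unadjusted p under 0.05 was found for 2345 probe sets. Changes below are log2 differences, restrained minus control, of the signal plus 16, with limma's standard error (SE), and the plus 16 makes them smaller than the ratio of signals for dim genes.

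**Figure D1:**
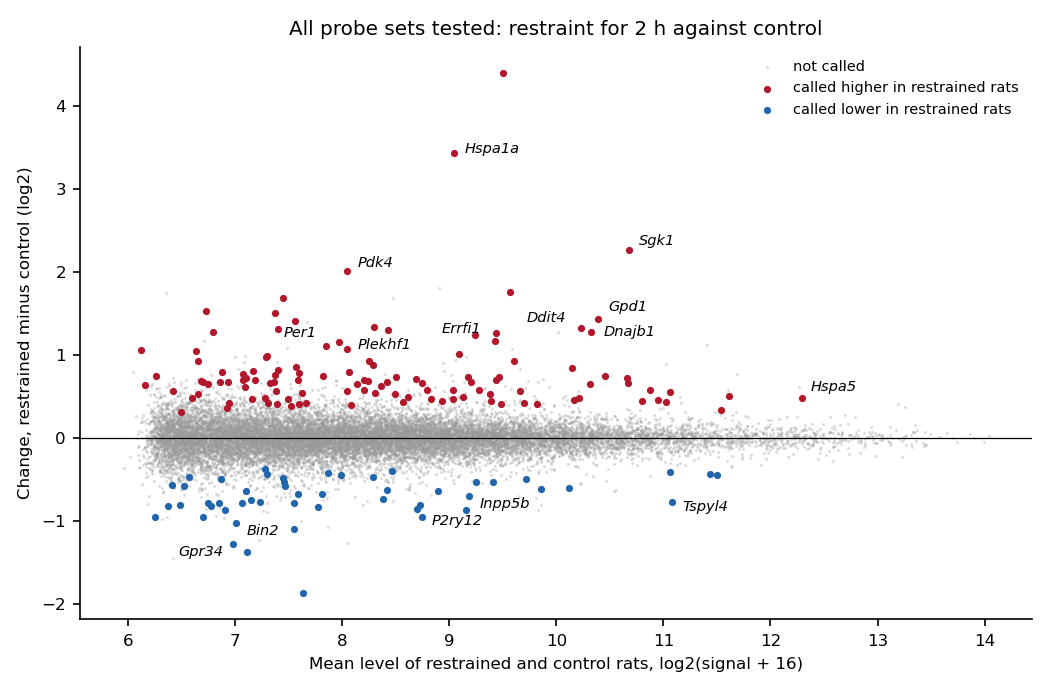
Change with restraint (log2, restrained minus control) of each of the 18625 probe sets against its mean level in both groups (log2 of signal plus 16). Red points are the 117 probe sets called higher in restrained rats, blue points the 51 called lower, and grey points were not called. The highest red point, at 4.40, is a probe set with several gene symbols in the annotation, which is not given a name here.

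Known targets of the glucocorticoid receptor made up 15 of the 64 genes that rose. The list, like the other lists here, was chosen with earlier results of these data known, so its counts are a description. Of 45 listed targets 40 were tested, 1 being absent from the table and 4 below the signal filter. Of these 40, 15 rose and 0 fell, beside 0.621% and 0.262% of all genes. A positive change was found in 37, and the median change was 0.48, beside -0.0038 over all 10309 genes. Groups did not overlap for 23 members that were higher and 1 that was lower, beside 3.42% and 2.96% of all genes. Each restrained rat showed the shift, with member medians of 0.50, 0.58, 0.55 and 0.44 above the control mean in rats 1 to 4.

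Sgk1, the kinase named for its induction by serum and glucocorticoids, had signals of 3048, 3980.4, 3818 and 3535 in restrained rats 1 to 4, against 732, 618, 865 and 718 in controls 1 to 4. The lowest restrained rat was far above the highest control, and the change of 2.27 (SE 0.12, adjusted p = 4.04e-08) had the smallest adjusted p of all probe sets. Pdk4, a kinase that shuts down pyruvate dehydrogenase and so spares glucose, had signals of 652, 485, 484 and 456 in restrained rats and 127, 107, 120.2 and 109.8 in controls. Restrained rat 1 stood above the other restrained rats, and no restrained rat overlapped the controls. The change was 2.01 (SE 0.17, adjusted p = 2.17e-05). Gpd1, the cytosolic glycerol 3-phosphate dehydrogenase that links glycolysis to lipid synthesis, had 1550.4, 2281, 2726 and 2403 in restrained rats, against 802, 778, 707 and 933 in controls. Here restrained rat 1 was the lowest of its group and still above every control (change 1.44, SE 0.17, adjusted p = 0.000778).

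Several of the called targets restrain growth or inflammatory signalling. Ddit4, an inhibitor of the growth kinase mTOR, had signals of 2009, 1918, 1881 and 1733 in restrained rats and 609.6, 759.7, 879.9 and 737 in controls (change 1.33, SE 0.12, adjusted p = 4.26e-05). Nfkbia, which holds NF-kappaB in the cytoplasm, had 452, 585, 612 and 467 in restrained rats and 162, 208, 230.0 and 219.8 in controls (change 1.30, SE 0.14, adjusted p = 0.000195). Errfi1, a feedback inhibitor of the epidermal growth factor receptor, had 999, 1134, 1172 and 947 in restrained rats and 412, 361, 482 and 483 in controls (change 1.26, SE 0.12, adjusted p = 5.93e-05). In all 3 genes the restrained and control rats lay in separate, narrow bands. Tsc22d3, known as the glucocorticoid-induced leucine zipper, had 1945, 2086, 1839 and 2445 in restrained rats, against 1128, 1399.7, 1261 and 1216 in controls, a change of 0.72 (adjusted p = 0.00643).

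Fkbp5 and regulators of transcription were called as well. Fkbp5, a cochaperone that lowers the hormone affinity of the glucocorticoid receptor, had signals of 405, 352, 427 and 434 in restrained rats and 236, 199.6, 142 and 258 in controls (change 0.93, SE 0.14, adjusted p = 0.00415), and its dimmer probe set was called higher too. Bcl6, a transcriptional repressor, had 746, 763, 731 and 794 in restrained rats and 451, 324, 341 and 365 in controls, so that the restrained rats were nearly level with each other (change 1.01, SE 0.14, adjusted p = 0.00331). Klf15, a zinc finger factor of amino acid and glucose metabolism, had 675, 747, 745 and 751 in restrained rats and 380.1, 531, 400.2 and 428 in controls (change 0.74, SE 0.09, adjusted p = 0.0011). Its dimmer probe set was not called, and there the groups overlapped (change 0.79, adjusted p = 0.072). The other called targets were the factor Klf9 (0.67), Arrdc2 (0.67) and Tiparp (0.55), all 3 named after their values were seen, and the clock genes Per1 and Per2. Tiparp's 2 kept probe sets disagreed in sign. Among the members that were not called, the groups did not overlap for Slc2a1, the glucose transporter of the blood-brain barrier (change 0.48, adjusted p = 0.0644), and this gene was called in 5 of 20 alternative settings.

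**Figure D2:**
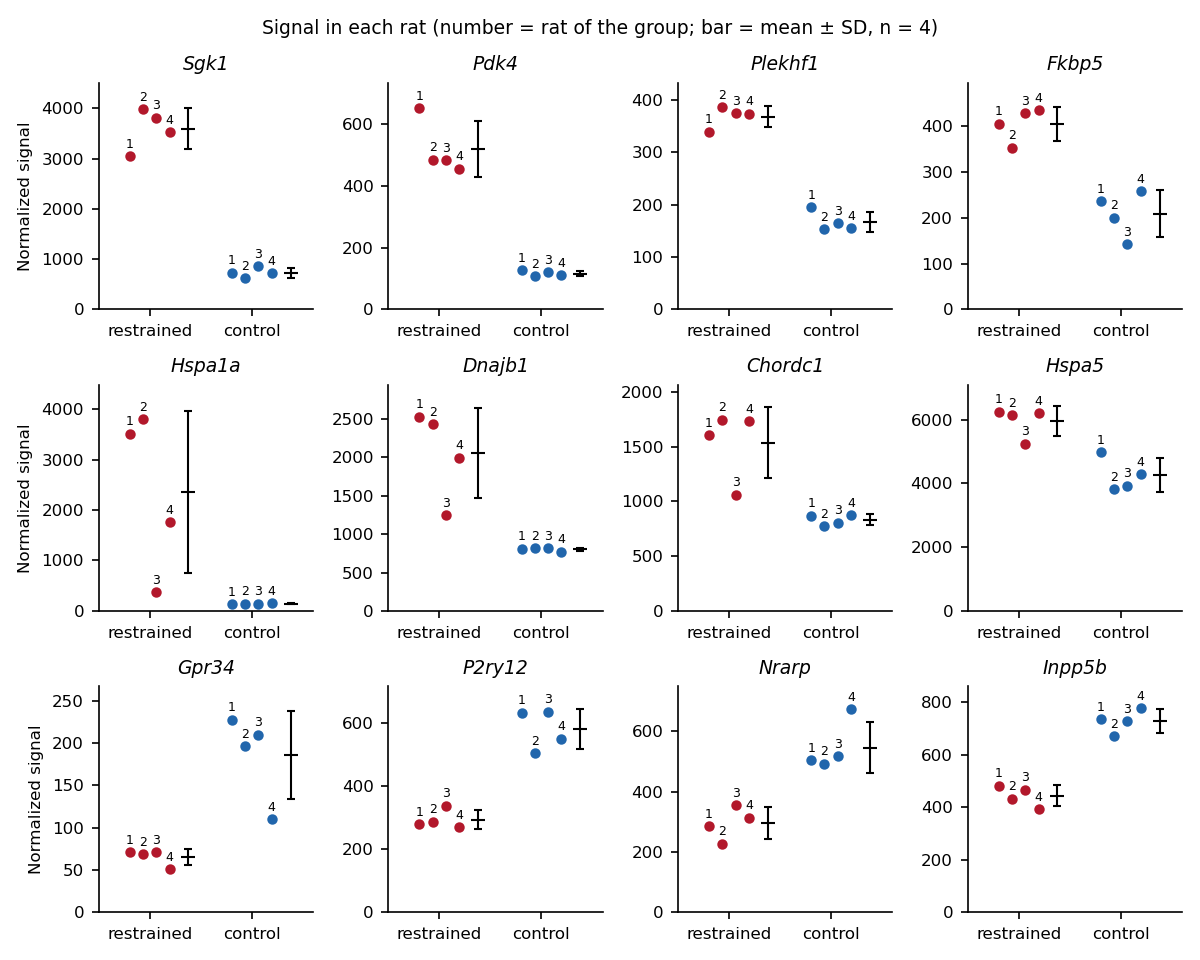
Quantile-normalized signal (linear scale from 0) in each restrained and each control rat for 12 genes, with the rat's number above its point and a bar for the mean ± SD (n = 4). The top row holds glucocorticoid-responsive genes and Plekhf1, the middle row chaperone genes, in which restrained rat 3 is the lowest of its group each time, and the bottom row genes that were lower in restrained rats.

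The receptors and the hormones at the head of the axis gave no call of their own. Of 9 tested genes for corticosteroid receptors and their partners, 1 rose and 0 fell, beside 0.621% and 0.262% of all genes, with a median of 0.04. The one was Stip1, which hands client proteins between heat shock proteins 70 and 90 (signals 2735, 2945, 2038 and 2678 in restrained rats and 1687, 1831, 1595 and 1906 in controls, change 0.55, SE 0.11, adjusted p = 0.0297). Its call held in 2 of the 8 fits that left out 1 rat, with an adjusted p of up to 0.112. The glucocorticoid receptor gene Nr3c1, named after its values were seen, differed by -0.06 (SE 0.09, adjusted p = 0.835). Of 17 listed stress axis hormone and receptor genes, 3 were absent from the table and 6 below the signal filter. None of the 8 tested was called, with a median of 0.04. Crh, the releasing hormone itself, had 167, 117, 142 and 207 in restrained rats and 179, 120.5, 174 and 193 in controls, with wide overlap (change -0.08, SE 0.17, adjusted p = 0.906). Avp, the vasopressin gene, had 3652, 4353, 4892 and 4565 in restrained rats and 4105, 4582, 3441 and 4969.9 in controls (change 0.04, SE 0.23, adjusted p = 0.97). Trh, the thyrotropin-releasing hormone gene (-0.35, adjusted p = 0.402), and Adcyap1r1, the PACAP receptor gene (0.23, adjusted p = 0.56), did not pass either.

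Inducible heat shock genes gave 5 calls, with signals that differed widely from one restrained rat to another. Of 26 listed genes 22 were tested, of which 5 rose and 0 fell, beside 0.621% and 0.262% of all genes. A positive change was found in 21, and the median was 0.32. In 10 every restrained rat was above every control, beside 3.42% of all genes. Hspa1a, a stress-induced heat shock protein 70 gene, had signals of 3515, 3796, 368 and 1753 in restrained rats 1 to 4, against 137, 144, 146 and 152 in controls. All restrained rats were above the controls, but rat 3 was far below the other 3 (change 3.44, SE 0.54, adjusted p = 0.00631). Dnajb1, the J-domain cochaperone of heat shock protein 70, had 2529, 2437, 1245 and 1998 in restrained rats and 811, 818, 814 and 773 in controls (change 1.28, SE 0.21, adjusted p = 0.00671). Rat 3 was again the lowest, and the controls were nearly identical.

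Chordc1, a cochaperone of heat shock protein 90, had 1607, 1748, 1061 and 1734 in restrained rats and 869.5, 774, 808 and 876 in controls (change 0.85, SE 0.16, adjusted p = 0.016). Its call held in 4 of 8 fits with 1 rat left out, being lost without restrained rat 2 (adjusted p = 0.0683), restrained rat 4 (0.0619), control rat 2 (0.0571) or control rat 3 (0.0521). Cryab, the small heat shock protein alpha-B crystallin of astrocytes and oligodendrocytes, had 1828, 2169, 1633 and 1653 in restrained rats and 915, 1229, 1268 and 905 in controls (change 0.75, SE 0.14, adjusted p = 0.0146), and lost its call without restrained rat 2 (adjusted p = 0.0608). Hspb1, another small heat shock protein gene, named after its values were seen, was not called at 261 to 1359.9 in restrained rats and 149 to 202 in controls (change 1.69, SE 0.43, adjusted p = 0.0854).

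Restrained rat 3 was the lowest of its group in 19 of the 22 heat shock genes (86.4%), against 22.3% of all genes and 8 of the 40 glucocorticoid targets (20%). The median heat shock change against the control mean was 0.087 in rat 3, and 0.43, 0.49 and 0.35 in rats 1, 2 and 4. Without rat 3, 9 members were called higher (median 0.40), an alternative chosen after seeing the data. In the fit on the 8 arrays alone 1 was called, and without control rats 1 and 2 together, also chosen after seeing the data, none was, though all of the settings kept 0 members called lower. Hspa1a was called without each single rat (adjusted p up to 0.0267), but not in those last 2 settings (0.0609 and 0.0774).

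**Figure D3:**
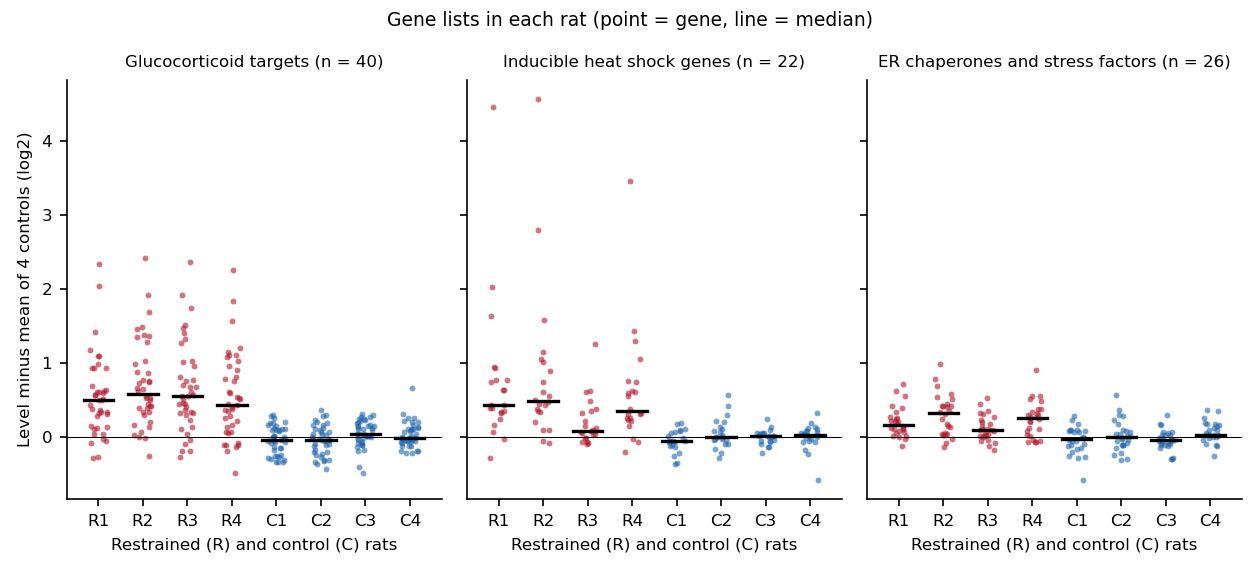
Level of each gene in each rat minus its mean over the 4 control rats (log2; each point is a gene, each black line the median of the list in that rat), for glucocorticoid targets, inducible heat shock genes and endoplasmic reticulum chaperones and stress factors. Restrained rats (R1 to R4) stand left of control rats (C1 to C4); in R3 the median of the glucocorticoid targets is 0.55, within the 0.44 to 0.58 of the other restrained rats, and that of the heat shock genes is 0.087, below their 0.35 to 0.49.

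The promoters of these genes were searched for the letters that heat shock factors bind, and the matches of a called and an uncalled member are shown. The heat shock element, searched as GAA, TTC and GAA with any 2 bases after each of the first 2 and read on both strands from 250 bases before to 50 after the start of transcription in RefSeq's annotation of GRCr8, occurred in 267 of 33469 promoters (0.798%). Counted by gene, as below, it was in 218 of 27457 genes (0.794%). It was present in 5 of the 19 heat shock genes with a promoter in the table (26.3%), namely Chordc1, Dnaja1, Hspd1, Hspe1 and Hsph1. It was also in 1 of the 55 called-higher genes with a promoter there (1.82%), Chordc1. Chordc1 holds 3 overlapping matches, both strands counted, between bases 11 and 33 after its start (chr8:23650828-23650856, plus strand), and Dnaja1, a J-domain cochaperone named here after its values were seen, holds 1 between bases 10 and 22 (chr5:60638410-60638428, plus strand). Capitals mark the fixed letters of the motif.
Chordc1: ccgGAAcgTTCggGAAgaTTCctGAAgca
Dnaja1: gcgGAActTTCcaGAAcgc
Dnaja1's brightest probe set was not called (change 0.32, adjusted p = 0.138), while a dimmer one was (change 0.51, adjusted p = 0.0249). The glucocorticoid response element was searched as GNACA and TGTNC with any 3 bases between them, which reads the same on both strands. It was found in 147 of 33469 promoters (0.439%), or by gene in 126 of 27457 (0.459%). It was in 1 of 34 listed targets (2.94%, Fam107a) and in none of the 55 called-higher genes. These windows cover the start region only.

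Chaperones and stress factors of the endoplasmic reticulum gave 4 calls. Of 26 tested genes for chaperones and stress factors of that compartment, 4 rose and 0 fell, beside 0.621% and 0.262% of all genes. A positive change was found in 23, and the median was 0.20. Herpud1, which helps remove misfolded proteins from the compartment, had signals of 828, 1066, 729 and 1012 in restrained rats and 532, 445, 555 and 605 in controls (change 0.74, SE 0.14, adjusted p = 0.0187). Hspa5, the main heat shock protein 70 of the compartment, had 6251, 6148, 5247 and 6205 in restrained rats and 4984, 3823, 3928 and 4296 in controls (change 0.49, SE 0.10, adjusted p = 0.0228). Restrained rat 3 was the lowest of its group in both. Ddit3, the transcription factor CHOP, had 814, 856, 631 and 690.5 in restrained rats and 524, 393, 478 and 587 in controls (change 0.58, adjusted p = 0.0437). Hsp90b1, the compartment's heat shock protein 90, had 3522, 3503, 3064 and 3222 in restrained rats and 2544, 2524, 2529 and 2901 in controls (change 0.34, adjusted p = 0.0494). With 1 rat left out, the calls of Herpud1, Hspa5, Ddit3 and Hsp90b1 held in 5, 3, 2 and 2 of 8 fits, with adjusted p up to 0.0773, 0.0804, 0.149 and 0.151. The list had 0 calls without restrained rat 2, restrained rat 4 or control rat 2, and 5 without restrained rat 3. It also had 0 calls in the fit on the 8 arrays alone (adjusted p = 0.0824, 0.154, 0.194 and 0.256 for Herpud1, Hspa5, Ddit3 and Hsp90b1) and with the signals as deposited (0.114, 0.456, 0.450 and 0.938).

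The element through which misfolded protein activates such chaperone genes has the letters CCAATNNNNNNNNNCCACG, and it was printed here for the pair of called genes that carry it. It occurred on either strand in 22 of 33469 promoters (0.0657%), or by gene in 21 of 27457 (0.0765%). It was in 7 of the 21 genes of this list with a promoter in the table (33.3%), and in 2 of the 55 called-higher genes (3.64%). Those were Hspa5, with 1 match 43 to 25 bases before its start (chr3:38452943-38453015, plus strand), and Hsp90b1, with 2 matches between 176 and 54 bases before its start (chr7:23012317-23012499, minus strand). Capitals mark the fixed letters.
Hspa5: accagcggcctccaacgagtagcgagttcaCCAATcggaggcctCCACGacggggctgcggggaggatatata
Hsp90b1: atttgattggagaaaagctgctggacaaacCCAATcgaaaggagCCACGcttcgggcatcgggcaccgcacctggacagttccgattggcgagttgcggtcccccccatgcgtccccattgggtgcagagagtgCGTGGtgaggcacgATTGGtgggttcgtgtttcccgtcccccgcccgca
In Hsp90b1 the second match stands on the opposite strand and so reads CGTGG to ATTGG. Among 17 genes of the amino acid response run by the factor Atf4, 2 rose, Ddit4 and Ddit3, and 0 fell, with a median of 0.13. Of all genes 0.621% rose and 0.262% fell.

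Immediate early genes gave 1 call. Of 40 listed genes 27 were tested, 3 being absent from the table and 10 below the signal filter. Of these 27, 1 rose and 0 fell, beside 0.621% and 0.262% of all genes. A positive change was found in 22, and the median was 0.25. Gadd45g, a small protein of growth arrest and stress kinase signalling, had signals of 144, 212, 149.7 and 183 in restrained rats and 102, 94.9, 81.0 and 119.8 in controls (change 0.70, SE 0.16, adjusted p = 0.045), and was called in 1 of 8 fits with 1 rat left out (adjusted p up to 0.151). Fos, the classic activity marker, had 802, 619.9, 327 and 618 in restrained rats and 494, 353, 353 and 277 in controls. Restrained rat 3 lay among the controls, and the change of 0.62 (SE 0.29) did not pass (adjusted p = 0.39). Nr4a1, an orphan nuclear receptor gene, had 251, 204, 133 and 157 in restrained rats and 124, 137, 156 and 147 in controls (change 0.33, SE 0.29, adjusted p = 0.696). The list of kinase feedback inhibitors had 1 call of 12, Errfi1, beside 0.621% of all genes called higher, with a median of 0.06.

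Among 20 clock genes, 2 rose and 0 fell, beside 0.621% and 0.262% of all genes. The median was -0.06 (0.03 with the signals as deposited). Per1, a repressor of the clock that also carries a glucocorticoid response, had 284, 392, 302 and 322 in restrained rats and 152, 100.1, 156 and 164 in controls (change 1.11, SE 0.16, adjusted p = 0.00415). Per2 had 392, 452, 384 and 478 in restrained rats and 333, 267, 312 and 333 in controls (change 0.43, SE 0.09, adjusted p = 0.0315), and was called in 4 of 8 fits with 1 rat left out. The clock output genes Dbp (-0.45, adjusted p = 0.0644) and Nfil3 (0.74, adjusted p = 0.0881), named after their values were seen, were not called. The labels do not state the hour of dissection.

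Several genes that rose stood on no list. Plekhf1, a lipid-binding protein of endosomes and lysosomes, had 339, 385, 374 and 373 in restrained rats and 195, 153, 164 and 155 in controls, and stood between Sgk1 and Pdk4 in the order of p (change 1.07, SE 0.08, adjusted p = 6.96e-06). Acer2, a ceramidase of the Golgi that yields sphingosine, had 171, 266, 206 and 193 in restrained rats and 97.3, 109.8, 80.8 and 98.3 in controls (change 0.99, SE 0.16, adjusted p = 0.00631). Pla2g3, a secreted phospholipase A2, had 112, 99.3, 156 and 149 in restrained rats and 50.2, 49.7, 42.7 and 74.7 in controls (change 1.04, SE 0.17, adjusted p = 0.00724). In these 3 genes of lipid handling no restrained rat overlapped a control, as in all 64 genes that rose.

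The collagen prolyl 4-hydroxylases P4ha1 and P4ha2, which modify procollagen in the endoplasmic reticulum, rose side by side. P4ha1 had 1213, 1365, 792 and 959 in restrained rats and 587, 489, 520.3 and 604 in controls (change 0.93, SE 0.15, adjusted p = 0.00756). P4ha2 had 570.1, 562, 401 and 537 in restrained rats and 364, 248, 272 and 353 in controls (change 0.72, SE 0.16, adjusted p = 0.039), with restrained rat 3 the lowest of its group, as in P4ha1. Ccdc117 rose by 0.86 (adjusted p = 0.0102) and Swt1, an RNA endonuclease gene, by 0.88 (adjusted p = 0.0391), both with rat 3 lowest among the restrained. Depp1, a gene induced by forkhead factors and progesterone, rose by 0.75 at low signals of 69.2 to 102 in restrained rats and 37.1 to 51.0 in controls (adjusted p = 0.03). P4ha2, Swt1 and Depp1 were called in 3, 2 and 2 of 8 fits with 1 rat left out, with adjusted p up to 0.129, 0.126 and 0.0902.

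The lists of metabolism, inflammation and growth had 0 to 2 calls each, where 0.621% of all genes rose and 0.262% fell. Of 24 fuel and insulin pathway genes 2 rose, Pdk4 and Gpd1, and the median was 0.08. Of 18 sterol and fatty acid synthesis genes none was called (median -0.04), and the nearest were Ch25h, cholesterol 25-hydroxylase (180.2 to 256 in restrained rats and 82.5 to 125 in controls, change 0.91, adjusted p = 0.192), and Dhcr7 (-0.31, adjusted p = 0.39). Of 30 NF-kappaB and cytokine genes only 14 were bright enough to be tested, 1 of them rose, Nfkbia, and the median was 0.25. Of 17 oxidative stress and hypoxia genes 1 rose, with a median of 0.08. It was Ndrg1, a gene of oligodendrocytes and Schwann cells (2341, 2457, 2414 and 2014 in restrained rats, against 1515, 1688, 1774 and 1718 in controls, change 0.46, adjusted p = 0.0323), called in 2 of 8 fits with 1 rat left out. The dimmer probe set of Ndrg1 was not called, and there the groups overlapped (change 0.51, adjusted p = 0.457). Of 16 cell cycle and growth arrest genes 1 rose, Gadd45g, with a median of 0.03.

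Among the genes that fell, 3 were microglial markers. Of 15 tested microglia genes, 3 fell and 0 rose, beside 0.262% and 0.621% of all genes. A negative change was found in 9, beside 5268 of all 10309 genes, and the median was -0.15. Gpr34, a receptor for lysophosphatidylserine, had signals of 71.3, 69.2, 70.9 and 51.2 in restrained rats and 228, 196, 210.1 and 109.9 in controls (change -1.27, SE 0.23, adjusted p = 0.0145). P2ry12, the ADP receptor with which resting microglia sense their surroundings, had 279, 288, 338 and 269 in restrained rats and 633, 505, 636 and 550.0 in controls (change -0.95, SE 0.18, adjusted p = 0.0172), and its second probe set was called lower too. Cd33, an inhibitory sialic acid receptor, had 57.0, 75.3, 85.6 and 77.8 in restrained rats and 164, 124, 154 and 144 in controls (change -0.86, SE 0.15, adjusted p = 0.0121). Groups did not overlap in any of these 3 genes, as in all 27 genes that fell.

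Most of the microglia list was not called, and 5 of its 20 genes were not tested, 2 being absent from the table and 3 below the signal filter. Cx3cr1, the fractalkine receptor, differed by -0.29 (adjusted p = 0.364), Csf1r, the growth factor receptor on which microglia depend, by 0.09 (0.819), and Tmem119 by 0.37 (0.246), all 3 named after their values were seen. The summed signal of the 15 markers was 7050.3 to 9140.1 in restrained rats and 7608 to 8830.1 in controls (exact permutation p = 0.314, and 0.886 after adjustment over 15 marker lists). In whole tissue, fewer cells of a type and less RNA per cell cannot be told apart. Gpr34 lost its call without restrained rat 4 (adjusted p = 0.0553), control rat 2 (0.0521) or control rat 3 (0.0523), and P2ry12 without restrained rat 2 (0.0594), restrained rat 4 (0.0604) or control rat 3 (0.0575). Without control rats 1 and 2 together no microglia marker was called, with the signals as deposited 1 was, and among the 10 members in the brightest part of the arrays (above the 60th percentile) 1 was called, with a median of 0.02.

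Bin2, Plek and Pycard, on none of the lists, were also among the 25 largest falls. Bin2, a membrane-bending protein of leukocytes, had 64.9, 76.7, 102 and 60.6 in restrained rats and 205, 159, 179 and 136 in controls (change -1.02, SE 0.17, adjusted p = 0.00807). Plek, or pleckstrin, the protein kinase C substrate of platelets and leukocytes, had 47.8, 61.7, 60.02 and 67.8 in restrained rats and 144, 111, 138 and 128 in controls (change -0.96, SE 0.17, adjusted p = 0.012). Both kept their calls without any single rat, but Bin2 lost its call without control rats 1 and 2 together (adjusted p = 0.107), and Plek did there (0.0818) and with the signals as deposited (0.0827). Pycard, the adaptor protein of inflammasomes, had 56.3, 77.2, 75.6 and 81.9 in restrained rats and 151, 141, 109.8 and 146 in controls (change -0.79, adjusted p = 0.0484), but its call was lost in each of the 8 fits with 1 rat left out (adjusted p up to 0.141). Of the 4 tested markers of perivascular macrophages 1 rose, beside 0.621% of all genes, and the median was 0.25. It was Lyve1, a hyaluronan receptor also made by lymphatic endothelium (187, 141, 203 and 170.4 in restrained rats, against 75.5, 91.9, 102 and 103 in controls, change 0.81, adjusted p = 0.0351). Lyve1 was called in 2 of 8 fits with 1 rat left out, and the summed signal of the 4 markers was 953 to 1444 in restrained rats and 752 to 1634 in controls.

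A pair of Notch genes fell. Of 13 tested genes of the Notch pathway, 2 fell and 0 rose, beside 0.262% and 0.621% of all genes. The median was -0.09 (0.02 with the signals as deposited). Nrarp, a Notch target that dampens the pathway, had 287, 227, 355 and 314 in restrained rats and 504, 493, 517 and 673 in controls (change -0.86, SE 0.14, adjusted p = 0.00667), with both of its probe sets called lower. Its call was kept without any single rat and lost in the fit on the 8 arrays alone (adjusted p = 0.0597) and with the signals as deposited (0.131). Hes5, a Notch-driven repressor of neural precursors and glia, had 85.5, 78.3, 82.1 and 99.7 in restrained rats and 127, 224, 168 and 136 in controls (change -0.79, SE 0.18, adjusted p = 0.045), and was called in 2 of 8 fits with 1 rat left out. The receptor gene Notch1, named after its values were seen, differed by 0.07 (adjusted p = 0.864).

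The remaining falls were spread over many functions. Inpp5b, an inositol polyphosphate 5-phosphatase of membrane traffic, had 481, 433, 467 and 392 in restrained rats and 734, 669, 728 and 778 in controls, and had the smallest p of all falls (change -0.70, SE 0.09, adjusted p = 0.0011). Pspc1, a protein of nuclear paraspeckles, had 254, 235, 259 and 294 in restrained rats and 470.0, 421, 403 and 357 in controls (change -0.63, SE 0.09, adjusted p = 0.00422). Ociad1, a mitochondrial and endosomal protein gene, had 2505, 2407, 2139.8 and 2469.7 in restrained rats and 3099.7, 3195, 3498 and 3058 in controls (change -0.43, SE 0.08, adjusted p = 0.0125). These 3 genes kept their calls without any single rat, but with the signals as deposited all 3 lost them (adjusted p = 0.450 for Inpp5b, 0.521 for Pspc1 and 0.993 for Ociad1). Pspc1 and Ociad1 also lost theirs in the fit on the 8 arrays alone (0.0591 and 0.145) and without control rats 1 and 2 together (0.0623 and 0.0690). Tspyl4 had 1634, 1569, 1329 and 2121 in restrained rats and 3287, 2249, 3213 and 2628 in controls (change -0.77, adjusted p = 0.0347), and Swi5, a gene of homologous recombination, 610.3, 376, 353 and 335 in restrained rats and 644, 833, 916 and 665 in controls (change -0.87, adjusted p = 0.0224), each called in 3 of the 8 fits with 1 rat left out.

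A further 12 genes complete the 25 largest falls. Nkx6-2, a homeobox factor of myelinating cells, fell by 0.78 (adjusted p = 0.0271), Srcap, a chromatin remodelling ATPase, by 0.57 (0.0426), Zfp36l2, which marks messenger RNA for decay, by 0.50 (0.0304), and Med19, a Mediator subunit, by 0.43 (0.0372). Bmpr2, the type 2 receptor of bone morphogenetic proteins, fell by 0.63 (0.0411), Slc39a1, a zinc importer, by 0.52 (0.0371), Prkab1, a regulatory subunit of the energy sensor AMPK, by 0.42 (0.0386), and Nyap1, an adaptor of phosphoinositide 3-kinase in neurons, by 0.53 (0.0145). Frg1 (-0.81), Vof16 (-0.80), Hdhd3 (-0.64) and Rnf6, a ubiquitin ligase gene (-0.81), were the others. The dimmer probe set of Vof16 was not called, and there the groups overlapped (change -0.41, adjusted p = 0.502). Of these 12 genes Nyap1 kept its call in 7 fits with 1 rat left out, and the others in 1 to 6.

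Neuropeptide, GABA and glutamate genes gave no call. None of 20 feeding and arousal neuropeptide genes was called (median 0.07), with Tac3, the neurokinin B gene, at -0.34 (adjusted p = 0.191) and Apln, the apelin gene, at 0.25 (0.477) nearest. None of 16 genes of GABA synthesis, transport and receptors was called, and 13 of 16 had a negative change, with a median of -0.20. The member medians overlapped between groups, at -0.20, -0.04, -0.20 and -0.10 in restrained rats and -0.15, 0.09, 0.18 and -0.05 in controls. Gabbr1, a subunit of the metabotropic GABA receptor, had 2678, 2878, 2837 and 2819 in restrained rats and 3388, 4332, 3209.7 and 3388 in controls (change -0.34, SE 0.08, adjusted p = 0.0721), with no overlap, and Gad2, which makes GABA, was at -0.34 (0.312). None of 23 glutamate receptor and transporter genes was called, and 19 of 23 had a negative change, with a median of -0.17. Their member medians overlapped as well, at -0.13, -0.06, -0.14 and -0.20 in restrained rats and 0.0068, 0.01, 0.05 and -0.13 in controls. Grin2b, a subunit of the NMDA receptor, was at -0.80 (0.104) and Slc1a1, a neuronal glutamate transporter, at -0.31 (0.15). Grin2b was dim and its groups overlapped, with signals of 26.7 to 53.0 in restrained rats and 50.9 to 121.9 in controls. Over all genes 5268 of 10309 had a negative change. The median changes of the GABA and glutamate lists stayed negative under each scaling tried.

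A gene of dopamine synthesis was called. Of 16 monoamine and histamine genes 1 rose and 0 fell, beside 0.621% and 0.262% of all genes, with a median of 0.06. Ddc, the decarboxylase that makes dopamine and serotonin, had 1063, 706, 839.7 and 896 in restrained rats and 563, 545, 503 and 503 in controls (change 0.70, SE 0.15, adjusted p = 0.0351), and was called in 2 of 8 fits with 1 rat left out (adjusted p up to 0.106). The following 2 genes were named after their values were seen. Th, tyrosine hydroxylase, had 1496, 888, 1089 and 1008 in restrained rats and 716, 649, 437 and 346 in controls, with no overlap but no call (change 1.07, SE 0.24, adjusted p = 0.0515). Slc6a3, the dopamine transporter, had 1320.3, 712, 945 and 675 in restrained rats and 472, 407, 246 and 63.4 in controls, again with no overlap and no call (change 1.81, SE 0.48, adjusted p = 0.0958). Restrained rat 1 was the highest of its group in all 3 genes, and control rat 4 was the lowest of the controls in Th and Slc6a3. The hypothalamus and its borders hold several dopamine cell groups, and whether dissection differed between groups was not tested.

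**Figure D4:**
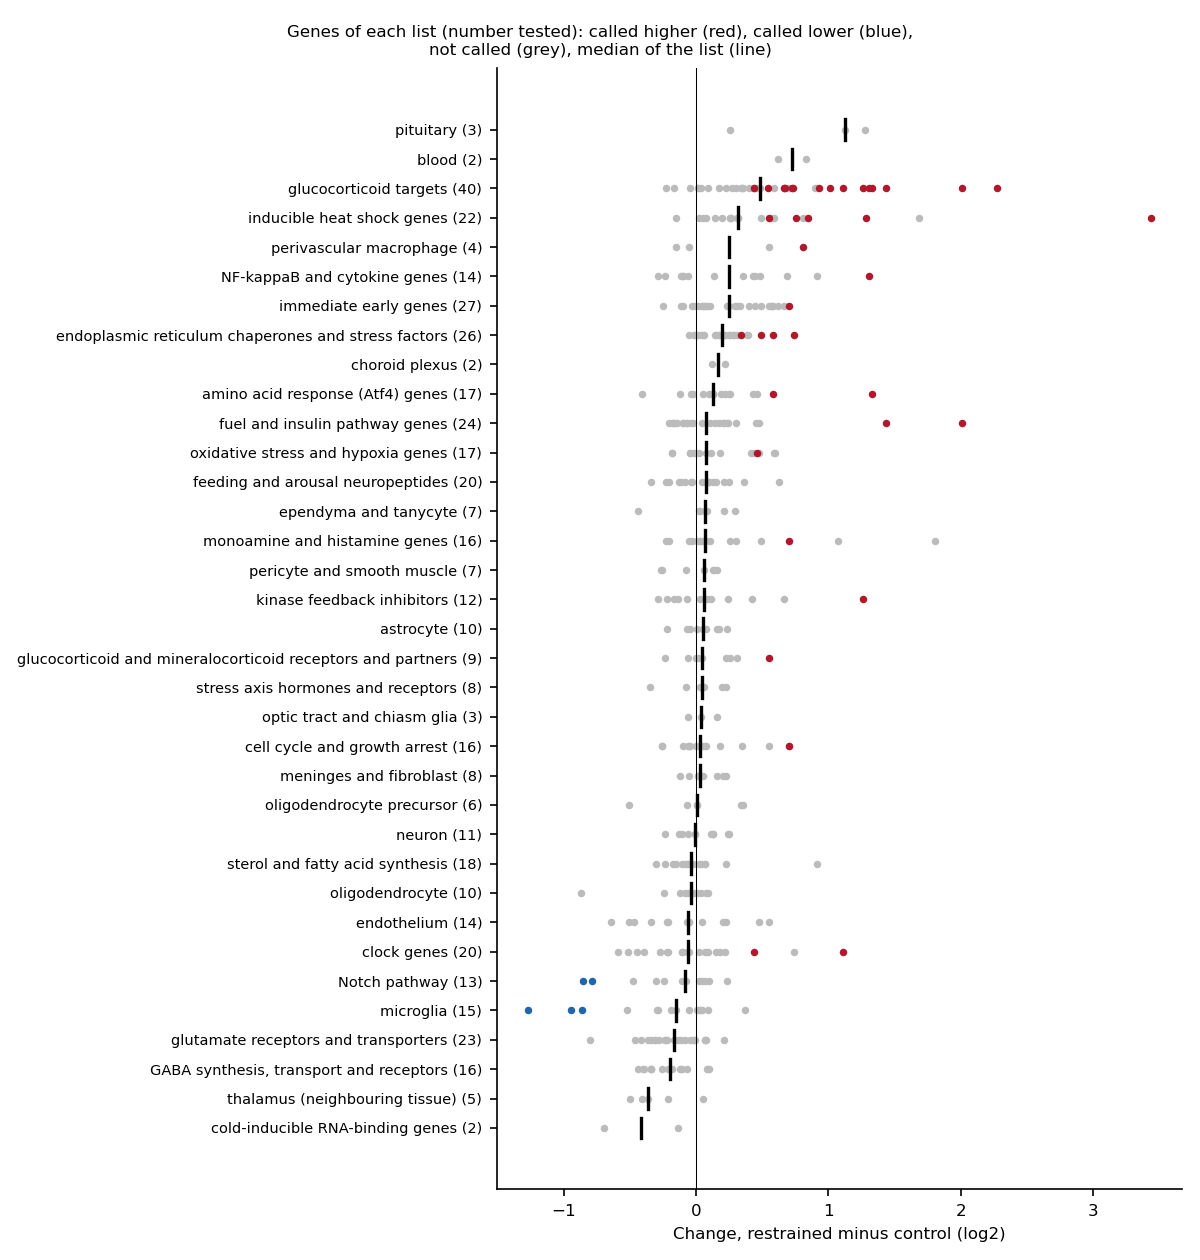
Change with restraint (log2, restrained minus control) of every tested gene on each of the 35 lists, sorted by the list's median (black line). Red points are genes called higher in restrained rats, blue points called lower and grey points not called. Lists with 2 or more calls higher are glucocorticoid targets (15 of 40), heat shock (5 of 22), endoplasmic reticulum (4 of 26), amino acid response (2 of 17), clock (2 of 20) and fuel (2 of 24), and perivascular macrophages have 1 of 4, beside 0.621% of all genes; calls lower are in the microglia (3 of 15) and Notch (2 of 13) lists, beside 0.262%.

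Markers of other cell types and of neighbouring tissue gave no further calls. None was called among 10 astrocyte genes (median 0.05), 10 oligodendrocyte genes (-0.04), 6 genes of oligodendrocyte precursors (0.0052), 11 neuronal genes (-0.0082), 14 endothelial genes (-0.06), 7 of pericytes and smooth muscle (0.06), 7 of ependyma and tanycytes (0.07), 2 of choroid plexus (0.17), 8 of meninges and fibroblasts (0.03), 5 of thalamus (-0.37) and 3 of optic tract glia (0.04). Signals as deposited shifted the median of all probe sets by 0.10, and with it the medians of the oligodendrocyte, neuronal, endothelial and sterol lists were above 0. The oligodendrocyte gene Opalin had no overlap between groups at 396 to 912 in restrained rats and 1018 to 1654 in controls (change -0.87, adjusted p = 0.157), as had the endothelial receptor gene Kdr at 119.7 to 200.5 in restrained rats and 208 to 338 in controls (-0.64, adjusted p = 0.195). Summed signals of all 15 marker lists overlapped between the groups. The lowest exact p was that of the 2 blood genes, with sums of 5344 to 9974 in restrained rats and 2926 to 5845 in controls (p = 0.0857, 0.886 after adjustment). Hbb, a beta globin gene, was at 7341, 5200.1, 9585 and 6638 in restrained rats and 2857, 5465, 4869 and 5698 in controls (0.62, adjusted p = 0.433).

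Control rat 3 stood apart in pituitary transcripts. Tshb, the thyrotropin beta gene, had signals of 1854, 2348, 752 and 1953 in restrained rats and 1943, 1186, 41.4 and 1422 in controls 1 to 4, so that control rat 3 alone was near the floor (change 1.28, SE 0.86, adjusted p = 0.584). Cga, the shared alpha subunit gene of pituitary hormones, named after its values were seen, had 3679.9, 4565, 3666 and 4165 in restrained rats and 4869, 4052, 102 and 4916 in controls (change 1.12, adjusted p = 0.628). The 3 pituitary markers tested, of 10 listed, gave sums of 4519 to 6996 in restrained rats and 208 to 6896 in controls (exact p = 0.686), with a median change of 1.12 and no call. How much adhering pituitary tissue had a part in other results was not tested. Leaving out control rat 3 took the number of calls to 76, against 168 with all rats. It was 70 without restrained rat 2, and 81 without restrained rat 4 or without control rat 2.

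Of the 168 called probe sets, 49 had no single gene name in the annotation used, 38 higher and 11 lower. The largest change of all, 4.40 (SE 0.47, adjusted p = 0.000195), was that of a probe set with several symbols in the annotation, which is therefore given to no gene. Its signals were 6608, 5929, 805 and 3749.7 in restrained rats, against 140.4, 143, 140.3 and 143 in controls, so that rat 3 was again the lowest. For 39 called genes with several kept probe sets, all probe sets had the same sign in 32, and 2 or more were called in 12. Cirbp, an RNA-binding protein gene induced by mild cold and lowered by heat, shows how they can differ. Its brightest probe set had 394, 419, 360.2 and 385 in restrained rats and 422, 557, 426 and 338 in controls (change -0.14, adjusted p = 0.76), while a dimmer probe set had 129, 148, 92.0 and 88.9 in restrained rats and 224, 302, 293 and 218 in controls and was called (change -1.09, SE 0.20, adjusted p = 0.0159). The third kept probe set of Cirbp had overlapping groups and no call (change -0.63, SE 0.19, adjusted p = 0.151). The other cold-inducible gene, Rbm3, had 529, 496, 723 and 759.8 in restrained rats and 962, 1172, 952 and 958 in controls, with no overlap and no call (change -0.69, SE 0.17, adjusted p = 0.0677), and neither gene of that list was called by its brightest probe set (median -0.41). Beyond the genes named by rule, 31 further genes rose by their brightest probe set, by 0.32 to 0.71, and 2 fell, with changes of -0.40 and -0.37. Counted by any kept probe set, 69 genes had a call higher and 38 a call lower. A dimmer probe set of Phactr3, named after its values were seen, was called higher at 1.53 (SE 0.21, adjusted p = 0.00331).

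Restraint was also applied to rats that inhaled linalool, which gives each gene a second difference, between other rats than those compared above. Their arrays shared the normalization, the filter and the estimate of the spread with the comparison above, so the 2 sets of calls are not independent. There, restrained rats with linalool were set against unrestrained rats with linalool, and 105 genes (1.02%) were higher and 73 (0.708%) lower. Of the 64 genes that rose without linalool, 61 had a positive change with it and 34 were called higher, with a median of 0.54. Of the 27 that fell, 20 had a negative change and 9 were called lower, with a median of -0.17. The difference between the 2 changes was tested directly as an interaction, and by limma 0 of 18625 probe sets (0%) passed, with 1489 at an unadjusted p under 0.05 and a smallest adjusted p of 0.0565, that of Inpp5b. By other settings of the fit, 0 to 14 passed.

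The largest glucocorticoid rises were also measured with linalool. There, Sgk1 differed by 2.07 and Pdk4 by 1.93, against 2.27 and 2.01 without it, and their interactions had unadjusted p of 0.251 and 0.769. By limma's interaction test, Fkbp5 differed by 0.68 with linalool and 0.93 without (unadjusted p = 0.217), and Hspa1a by 3.96 with and 3.44 without (0.5). Among the falls, Gpr34 differed by -1.07 with linalool and -1.27 without (0.544), and P2ry12 by -1.05 with and -0.95 without (0.681). Cd33 differed by -0.998 with and -0.86 without (0.525), and Bin2 by -0.70 with and -1.02 without (0.203). Plek and Pycard were not called with linalool, at -0.49 with and -0.96 without (0.0679) and -0.11 with and -0.79 without (0.0157). These p-values do not show that the changes were equal. The median of the 15 microglia genes was 0.14 with linalool and -0.15 without.

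Other genes had smaller, opposite or larger changes with linalool. Inpp5b had signals of 696, 710.4, 593 and 666 in restrained and 529, 634, 591 and 611 in unrestrained rats with linalool, a difference of 0.17, against -0.70 without linalool (interaction unadjusted p = 3.03e-06, adjusted p = 0.0565). Gpd1 differed by 0.54 with linalool and 1.44 without (unadjusted p = 0.00213), Tspyl4 by 0.32 with and -0.77 without (0.000199), and Bmpr2 by 0.38 with and -0.63 without (9.77e-05). Ddc differed by -0.11 with linalool and 0.70 without (0.00134), Th by -0.27 with and 1.07 without (0.00139), and Slc6a3 by -0.28 with and 1.81 without (0.00732). Larger with linalool were Fos, at 1.52 with and 0.62 without (0.0417), and Nr4a1, at 1.43 with and 0.33 without (0.0185). Ccdc117 was at 1.34 with and 0.86 without (0.0335). Fos and Nr4a1 were called higher with linalool by limma (adjusted p = 0.014 and 0.0214). Unadjusted p-values under 0.05 were found for 15 of the 64 genes that rose and 15 of the 27 that fell, and since these genes were chosen for their change without linalool, the shares are a description. No adjusted interaction p passed for any of them.

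**Figure D5:**
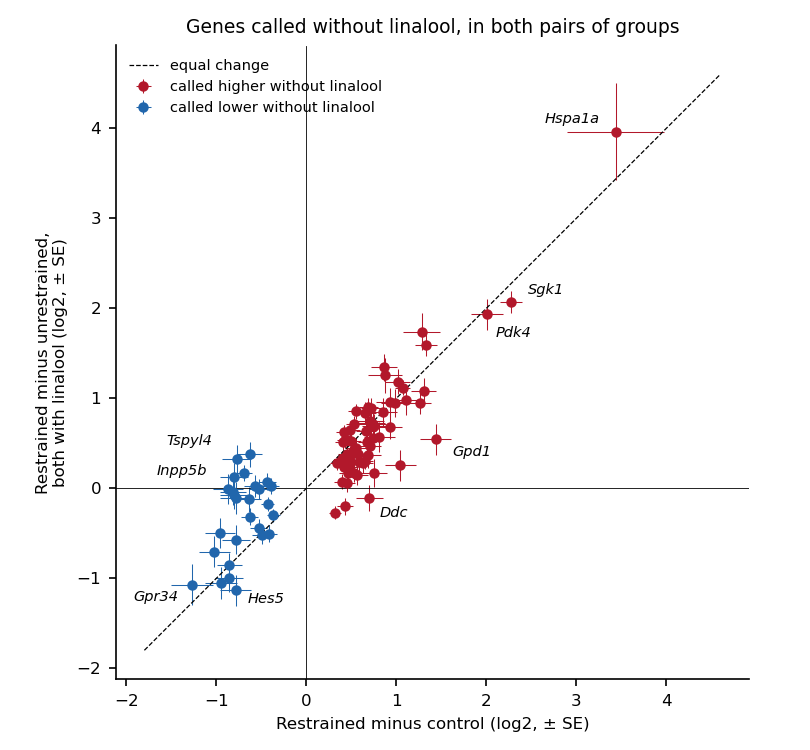
Change with restraint among linalool-inhaling rats (vertical, log2 ± SE) against the change without linalool (horizontal, log2 ± SE) for the 64 genes called higher (red) and the 27 called lower (blue) without linalool; the dashed line marks equal change. Sgk1 and Pdk4 lie near the line, while Gpd1, Ddc, Inpp5b and Tspyl4 lie away from it.

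Calls depended on single rats to unequal degrees. Of the 58 called genes named by rule, 25 kept their call in each of the 8 fits that left out 1 rat, 18 that rose and 7 that fell. Those that rose were Hspa1a, Sgk1, Pdk4, Gpd1, Ddit4, Nfkbia, Dnajb1, Errfi1, Per1, Plekhf1, Pla2g3, Bcl6, Acer2, P4ha1, Fkbp5, Ccdc117, Klf15 and Tsc22d3, and those that fell were Bin2, Plek, Cd33, Nrarp, Inpp5b, Pspc1 and Ociad1. The number of the 58 calls lost was 20, 28, 13 and 26 without restrained rats 1, 2, 3 and 4, and 16, 28, 27 and 8 without controls 1, 2, 3 and 4. Adjusted p among the lost calls reached 0.151 at most, and no change turned its sign. In the remaining 12 alternatives, all 7 of those falls and 7 of those rises (Hspa1a, Dnajb1, Pla2g3, P4ha1, Fkbp5, Ccdc117 and Tsc22d3) lost their call at least once.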

How the data were processed

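RNA from the hypothalamus of 16 rats was hybridized to single-colour Affymetrix arrays, 1 rat per array. The deposited values are linear signal intensity values of 31099 probe sets, which the submitters' processing notes credit to MAS5, with no scaling target stated there. The 16 arrays were quantile-normalized on the log2 scale, and 16 was added before log2 was taken again. Control probe sets (57) were left out, and the 40th percentile of mean signal was the filter, which left 18625 probe sets. Gene symbols came from the platform annotation, in which 20826 probe sets had 1 symbol, 436 several and 9780 none, and each gene was read from its brightest probe set.

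A group-means model over the 4 groups was fitted with limma 3.58.1 in R 4.3.3 (12 residual degrees of freedom), with Benjamini-Hochberg adjustment over all 18625 probe sets and a threshold of 0.05. Single values were compared by exact permutation, which with 4 against 4 rats cannot go below p = 0.0286. The number of arrays limits the precision.

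Genes were named by rule: the 25 largest rises and the 25 largest falls, up to 4 called members of each of the 35 lists, for lists without a call the 2 members of smallest p, and always Sgk1, Fkbp5, Per1, Fos, Nr4a1, Crh and Avp. The comparison, the lists and the rule were chosen with earlier results of these data known. Replicate numbers were the labels' own. Deviations of same-numbered restrained and control rats correlated at 0.23, 0.17, 0.0062 and 0.063, so the numbers were not taken to pair the rats. Alternatives changed the scaling, the pseudocount, the filter, the arrays in the fit, its variance model, covariates and blocks, and left out each rat. Promoter sequences were RefSeq's, of GRCr8.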

Additional observations from a re-analysis of the deposited data

Results flagged for a closer look

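Within each group of 4 rats, a value was singled out when its gap to the nearest of the other 3 was a larger share of the group's range than Dixon's 95% critical value for 4 samples. This held for 18 of 208 sets of 4 values, and chance alone gives about 1 in 20. Values are log2 of the signal plus 16 unless stated.

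Restrained rat 3 was set apart as the lowest of its group in 4 genes. It had 8.37 in Swt1, 10.07 in Chordc1, 8.70 in P4ha2 and 12.36 in Hspa5, where the other restrained rats had 8.83 to 8.86, 10.66 to 10.78, 9.11 to 9.19 and 12.59 to 12.61. Restrained rat 1 was highest in Pdk4 at 9.38 (others 8.88 to 8.97), and lowest in Klf15 at 9.43 (others 9.57 to 9.58) and in Slc1a2, the astrocyte glutamate transporter gene, at 6.58 (others 6.81 to 6.85). Restrained rat 4 was lowest in Gpr34 at 6.07 (others 6.41 to 6.45).

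Among controls, rat 4 was lowest in Dnajb1 at 9.62 (others 9.69 to 9.70) and highest in Nrarp at 9.43 (others 8.99 to 9.06) and in Hsp90b1 at 11.51 (others 11.31 to 11.32). Control rat 2 was lowest in Per1 at 6.86 (others 7.39 to 7.49) and highest in Rbm3 at 10.21 (others 9.92 to 9.93) and in Sox10, an oligodendrocyte lineage factor gene, at 9.50 (others 8.30 to 8.47). Control rat 3 was lowest in Tshb at 5.84 (others 10.23 to 10.94) and in Bmp4 at 7.00 (others 7.28 to 7.31), and highest in Apln at 8.83 (others 8.402 to 8.46). The log2 ratio of 3' to 5' GAPDH probe sets was highest in control rat 1 at 0.479 (others 0.188 to 0.214). Whether any of these readings is of technical origin was not tested.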

How the results depend on the processing

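No call turned its sign under any of the 20 alternatives. Against 168 calls, 117 higher, 51 lower and 58 named genes, the signals as deposited gave 54, 46, 8 and 20, with 85.2% of calls higher against 69.6%. No filter on dim probe sets gave 102, 72, 30 and 34, the 8 arrays alone gave 52, 40, 12 and 26, and leaving out control rats 1 and 2 together, chosen after seeing the data, gave 44, 34, 10 and 16. A covariate for the beta-actin 3' to 5' ratio gave 259 calls, 96 of them lower. The BioC level as a block gave 154 calls, 108 higher and 46 lower, and there Bmpr2, Ddit3, Hsp90b1 and Srcap lost their calls. The changes of these 4 genes were the same as in the main fit, as was the median over all probe sets (0.00275). Only the spread differed in these values, so this fit cannot test an effect of BioC on the changes. Leaving out 1 rat gave 70 to 202 calls, 51 to 136 higher and 19 to 74 lower, and 30 to 50 named genes. By rat these were 103, 70, 141 and 81 calls without restrained rats 1 to 4 and 202, 81, 76 and 202 without controls 1 to 4. The replicate number as a block gave 121 calls, 87 higher and 34 lower, and 2 of 4 restrained rats correlated best with the control of their own number; whether the numbers mark a shared batch is not stated in the labels. The interaction with linalool, with 0 calls, had 1 with the signals as deposited, with a pseudocount of 64, above the 60th percentile, with a trended robust variance, with BioC as a block and without control rats 1 and 2, and 14 with the beta-actin covariate. Of the 58 named calls, 11 were called in every setting in which they could be fitted, all of them rises: Sgk1, Pdk4, Gpd1, Ddit4, Nfkbia, Errfi1, Per1, Plekhf1, Bcl6, Klf15 and Acer2. The causes of these movements were not tested. No detection calls were used, so dim signals near the filter are the least certain.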
